A study of Homo sapiens with 30 samples.

Results

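Of 18536 genes with a protein-coding RefSeq transcript in these 22Rv1 libraries, 320 lost at least 1.5 log2 units of their mRNA level over 8 h in DMSO-treated cells but kept at least 1 log2 unit more of it than those cells when either of 2 CDK9 inhibitors was present. 22Rv1 is a human prostate carcinoma cell line. The set was chosen from the deposited CPM (read counts scaled to a common library total), with 1 transcript row per gene, the row with the highest summed CPM. A gene entered when its mean log2(CPM + 1) in DMSO at 8 h lay at least 1.5 below its mean at 0 h, when both KB742 and KI-ARv-03 at 8 h lay at least 1 above DMSO at 8 h, and when its mean at 0 h was at least 10 CPM. Genes with a DMSO conversion of 0.10 or more at 2 h and genes with ZNF or SLC symbols were left out. The fall and the retention at 8 h are therefore what chose these genes and are given below as descriptions without a test. The tests concern 2 h and 4 h, the later against the earlier time, and the T-to-C conversion at 4 h, none of which the choice used beyond the 2 h conversion limit.

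All cells received 4-thiouridine (s4U, 800 µM), a uridine analogue that is built into newly made RNA and is read as T-to-C conversions after alkylation (SLAM-seq). Cells took up s4U for 30 min, the 0 h samples were then collected, and the others went into fresh medium that held s4U again together with a compound or vehicle. The 30 libraries form 10 groups of 3: KB742 (1.2 µM) at 2 h, 4 h and 8 h, KI-ARv-03 (4 µM, shortened to Karv3 in the sample names) at 2 h, 4 h and 8 h, DMSO vehicle at 2 h, 4 h and 8 h, and the 0 h cells, with times counted from the change of medium. Libraries were made from the 3′ ends of mRNA. Whether the replicates are separate cultures is not stated, and the p-values therefore measure a spread between libraries that may be technical. For 8 of the 9 samples titled 4 h another label field says 2 h, and that field of the KB742 samples can be read as a 10-fold higher dose. Titles were used for the time and the protocol text for the dose.

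The kinase subunit of P-TEFb, CDK9, phosphorylates RNA polymerase II and its pausing factors so that the polymerase moves from the promoter into the gene body. Inhibiting it is known to lower transcription of many genes, and transcripts with short half-lives are usually the first to decline. The level of an mRNA reflects its synthesis and its decay together, whereas the conversion fraction of SLAM-seq reads follows the portion made since the label was added. In bulk libraries such as these, fewer cells of a kind and less RNA per cell cannot be told apart, and every CPM is a level relative to the other transcripts of the library.

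Sequencing depth ran from 3376884 to 9265131 reads per library. Luminal prostate genes were present at 0 h at unequal levels, with HOXB13 at 60.5 to 79.9 CPM and KRT18 at 67.7 to 75.02 CPM. KLK3 (4.44 to 11.1 CPM) and TMPRSS2 (3.51 to 4.27 CPM) were low, and the other luminal genes looked at had more reads than these. Basal (KRT5, KRT14, TP63), endothelial (PECAM1, VWF) and immune (PTPRC) markers were at 0 in the 0 h libraries, as were COL1A2 and DCN. Of the other stromal and immune markers, COL1A1 reached 3.38 CPM, VIM 7.04 CPM and CD68 0.753 CPM in the highest 0 h library. Replicate 2 of KB742 at 2 h and replicate 3 at 0 h correlated least with their groups, and replicate 1 of KI-ARv-03 at 4 h stood apart in its conversion.

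Of all genes 1820 met the fall and abundance criteria, and 1661 of them were under the conversion limit and had no ZNF or SLC symbol, of which the 320 genes were 19.3%. Of the remaining lost genes, 112 were retained with KB742 only, 182 with KI-ARv-03 only and 1047 with neither, and these 1341 genes are the comparison set used below, called lost and not retained. On the deposited scale the fall over 8 h in DMSO had a median of -2.38 log2 units, ranging from -5.73 to -1.51. The 8 h difference from DMSO had a median of 1.28 with KB742 (1.00 to 2.77) and 1.34 with KI-ARv-03 (1.00 to 2.67). On this scale the median of all genes tested was itself 0.26 and 0.25 above DMSO. With each library centred on the bulk of its genes (TMM-rescaled CPM), the medians of the set were 0.996 and 1.10. At 0 h the genes stood between 10.01 and 530.8 deposited CPM, with a median of 23.4 CPM. Read support was uneven: a gene had a median of 18 reads per library in DMSO at 8 h, against 187 reads at 0 h, and 22 of the 320 genes had no read in at least 1 of these DMSO libraries. The read-through symbols HSPE1-MOB4 and ST20-MTHFS share every value with MOB4 and MTHFS, which leaves 318 genes with distinct values.

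The limits of the set lie in a dense part of the data. The smallest accepted falls were those of PILRB (-1.51), SDAD1 (-1.52) and PRPSAP2 (-1.52), while NEDD1 (-1.4997), NIPA2 (-1.48) and PHLDA2 (-1.48) lay just outside. For KB742 the nearest genes inside were PIK3R4 (1.0024), ERGIC2 (1.0027) and MED13L (1.0027), and the nearest outside were SON, which fell short of 1 by less than the last digit printed, MAT2B (0.99985) and IVNS1ABP (0.99588). For KI-ARv-03, PGRMC2 (1.0014), PBDC1 (1.0157) and ISCA2 (1.0176) lay inside, and MAU2 (0.99818) and PAPD7 with TENT4A, 2 names of 1 gene (0.99447), lay outside. At the lower limit of abundance, NIN (10.008 CPM), TACC2 (10.016) and TEX2 (10.05) were accepted and FAT1 (9.944), PDXP (9.8034) and FAM174A (9.8016) were not. With TMM-rescaled CPM, which centre each library on the bulk of its genes, 103 genes met the criteria, all of them among the 320. Without replicate 3 of DMSO at 8 h 164 genes met them, without replicate 1 of the same group 520, and without replicate 1 of KB742 at 8 h 193.

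All levels that follow are TMM-rescaled CPM, and all differences are log2(CPM + 1), a scale that understates the change of low genes. Together the 320 genes took a steadily smaller share of the reads on genes under DMSO. Reads on genes are those of the 1 transcript row kept per gene, not the whole depth of a library. In replicate 1 at 0 h they were 2512175 of 6521316 reads. At 0 h the 320 genes held 3.11, 3.31 and 3.0% of the reads on genes in the 3 libraries. With KB742 the share was 2.26, 2.08 and 2.45% after 2 h, 1.6, 1.91 and 2.33% after 4 h, and 1.58, 1.03 and 1.25% after 8 h. With KI-ARv-03 it was 2.53, 2.03 and 2.13% after 2 h, 1.85, 1.74 and 1.7% after 4 h, and 1.4, 1.0 and 1.64% after 8 h. In DMSO they held 2.18, 2.43 and 1.8% after 2 h, 1.36, 1.35 and 1.47% after 4 h, and 0.585, 0.508 and 0.43% after 8 h. The inhibitor and DMSO libraries overlapped at 2 h, and at 4 h every library of either inhibitor lay above all 3 DMSO libraries. The 1341 lost and not retained genes held 10.1% of the reads on genes at 0 h on average. After 4 h they held 4.53% under KB742 and 4.34% under KI-ARv-03, against 3.73% in DMSO cells. Their inhibitor libraries also all lay above the DMSO libraries at 4 h, the lowest at 4.17% against 3.78% in the highest DMSO library. This separation was therefore not particular to the 320 genes.

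**Figure D1:**
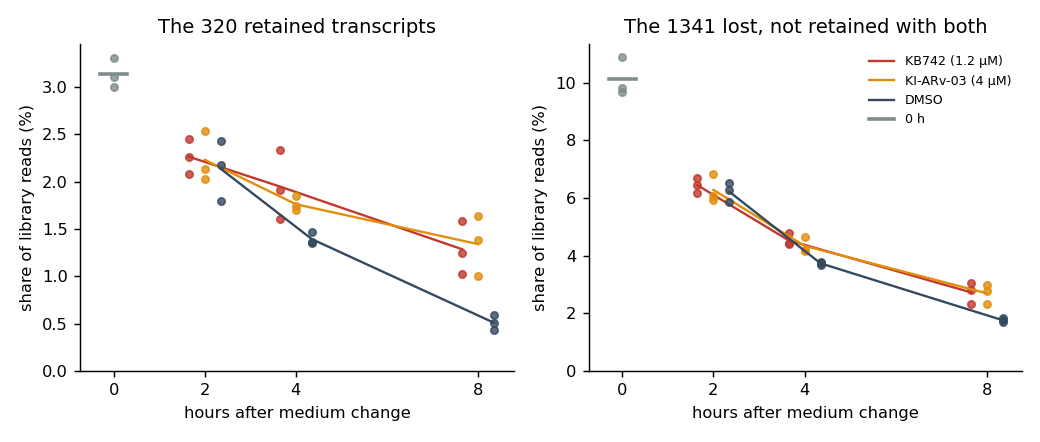
Share of the reads on genes of a library (%, y axis) in the 320 retained genes (left) and in the 1341 lost and not retained genes (right). The x axis gives hours after the change of medium, with 0 h at the left. Reads on genes are those of the 1 transcript row kept per gene. Points are libraries, lines join group means and the bar at 0 h is the mean. At 4 h the 320 genes hold 1.6 to 2.33% with KB742 and 1.7 to 1.85% with KI-ARv-03, above the 1.35 to 1.47% of the DMSO libraries. The inhibitor and DMSO libraries of the right panel also do not overlap at 4 h.

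Measured gene by gene against 0 h, the median of the 320 genes with KB742 was -0.29 after 2 h, -0.35 after 4 h and -0.74 after 8 h. With KI-ARv-03 the medians were -0.27, -0.48 and -0.66 at the same times, against -0.38, -0.73 and -1.74 with DMSO. The lost and not retained genes had medians of -0.48, -0.88 and -1.39 with KB742 and -0.50, -0.89 and -1.40 with KI-ARv-03, against -0.54, -1.05 and -1.62 with DMSO. Up to 4 h in DMSO the 320 genes had thus fallen less than the other lost genes, by median. At 8 h their median was slightly lower. The fall and the retention criteria both used the DMSO level at 8 h, so that the 8 h order is shaped by the choice of genes. Without the 3 libraries that stand apart the medians of the 320 genes were -0.26, -0.47 and -0.84 with KB742 and -0.34, -0.56 and -0.72 with KI-ARv-03, against -0.45, -0.79 and -1.88 with DMSO. On the deposited scale, which shifts the median of all genes by -0.37 in DMSO at 4 h against 0 h, the median of the set there was -1.15. Retention was partial. Against 0 h, 306 of the 320 genes were lower with KB742 at 8 h and 292 with KI-ARv-03. The inhibitors offset a median of 58.7% (KB742) and 63.9% (KI-ARv-03) of the log2 fall seen in DMSO. The 10 genes whose 8 h mean log2 level was above 0 h with both compounds were ATP2A2, BTG3, C5orf24, CCNL2, EIF3A, PDHX, PILRB, SDAD1, SELENOS and XPOT. They include the endoplasmic reticulum calcium pump (ATP2A2), an anti-proliferative protein (BTG3), a cyclin (CCNL2), a translation initiation subunit (EIF3A) and the exporter of tRNA (XPOT).

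At 4 h, which the choice of genes did not use, 3 of the 320 genes were called higher with KB742 than with DMSO (0.0351% of all 11406 genes tested were) and 2 with KI-ARv-03 (0.0175% of all genes). They were CCNL2, CLK2 and CCNL1 with KB742, and CCNL2 and CLK2 with KI-ARv-03 (limma-trend, with p adjusted by Benjamini-Hochberg over every gene tested and a threshold of 0.05). The only other gene called higher in either comparison was SLC20A1 with KB742, which met the level criteria and was left out by its symbol. CCNL1 and CCNL2 encode cyclins L1 and L2, nuclear partners of CDK11 that associate with splicing factors. CLK2 is a dual-specificity kinase that phosphorylates the serine- and arginine-rich splicing factors. Both kinds of gene are known to control alternative splicing, and CLK1, the related kinase, was also among the 320.

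CCNL2 stood at 39.5, 27.6 and 23 CPM with KB742 and at 18.3, 30.4 and 47.8 CPM with KI-ARv-03 at 4 h, against 7.06, 5.07 and 4.68 CPM with DMSO. Every inhibitor library was above every DMSO library, and the inhibitor levels overlapped the 25.4, 18.9 and 40.3 CPM of the 0 h libraries. The difference from DMSO was 2.22 ± 0.37 (SE) with KB742 (limma adjusted p = 0.00476) and 2.25 ± 0.37 with KI-ARv-03 (limma adjusted p = 0.00463). Already at 2 h the KB742 libraries held 23.9, 24.4 and 28.7 CPM and the KI-ARv-03 libraries 28.5, 39.6 and 33.8 CPM, against 14.4, 11.3 and 10.5 CPM in DMSO. These 2 h groups did not overlap, but the differences of 1.04 and 1.42 missed the threshold (limma adjusted p = 1 and 0.675). At 8 h CCNL2 was at 25.4, 57.6 and 32.4 CPM with KB742 and 29.6, 53.7 and 14.6 CPM with KI-ARv-03, against 6.39, 5.73 and 4.93 CPM with DMSO.

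CLK2 had 12.4, 8.97 and 4.47 CPM with KB742 and 7.79, 9.12 and 10.7 CPM with KI-ARv-03 at 4 h, against 0, 1.8 and 1.71 CPM with DMSO, where 1 library had no read. The groups did not overlap. The difference was 2.20 ± 0.41 with KB742 (limma adjusted p = 0.0212) and 2.37 ± 0.41 with KI-ARv-03 (limma adjusted p = 0.00702). Its 0 h libraries held 12.4, 12.9 and 21.9 CPM, above the DMSO libraries of every later time. CCNL1 had 6.38, 6.04 and 8.78 CPM with KB742 and 4.62, 5.01 and 5.59 CPM with KI-ARv-03, against 0.807, 2.62 and 1.56 CPM with DMSO, and again no libraries overlapped. Its difference of 1.64 ± 0.32 with KB742 passed (limma adjusted p = 0.0269), whereas that of 1.24 ± 0.32 with KI-ARv-03 did not (limma adjusted p = 0.213). The difference between the compounds at 4 h was 0.40 ± 0.32 for CCNL1 (limma adjusted p = 1). CLK1 averaged 2.41 ± 1.57 CPM with KB742 and 3.16 ± 0.675 CPM with KI-ARv-03, against 1.17 ± 0.926 CPM with DMSO (SD, n = 3 each), and did not pass with either compound. Fitted to the 2 compared groups alone, 0 genes passed with KB742 and 1 with KI-ARv-03, where the spread comes from 6 libraries. Leaving out 1 library at a time gave 0 to 3 genes with KB742 (0 without its replicate 1, and 1 without its replicate 2 or DMSO replicate 1, which had no CLK2 read). It gave 1 to 2 genes with KI-ARv-03 (1 without its replicate 2 or DMSO replicate 1).

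The promoters of the 3 genes that passed at 4 h are shown because their transcripts moved together. Each line gives the 250 bases before the RefSeq start on the minus strand (GRCh38.p14), at chr1:1399336-1399585 for CCNL2, chr1:155273505-155273754 for CLK2 and chr3:157160148-157160397 for CCNL1. Capitals mark matches on either strand to GGGCGG (the GC box), to CCGGAAG (the ETS core), to CCAAT (the CCAAT box) and to CACGTG (the E-box), and 1 pair of GGGCGG matches in CCNL2 overlaps by a base.
CCNL2: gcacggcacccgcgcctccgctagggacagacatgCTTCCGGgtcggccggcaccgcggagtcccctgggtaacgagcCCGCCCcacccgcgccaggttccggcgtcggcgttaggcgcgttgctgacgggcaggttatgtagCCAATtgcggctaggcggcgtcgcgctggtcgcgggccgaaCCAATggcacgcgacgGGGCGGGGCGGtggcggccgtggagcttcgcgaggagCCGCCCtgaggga
CLK2: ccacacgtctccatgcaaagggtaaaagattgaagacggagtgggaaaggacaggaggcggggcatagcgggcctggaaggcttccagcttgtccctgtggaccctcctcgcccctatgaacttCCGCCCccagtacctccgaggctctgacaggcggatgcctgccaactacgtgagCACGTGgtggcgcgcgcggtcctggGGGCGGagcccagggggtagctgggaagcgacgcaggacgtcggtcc
CCNL1: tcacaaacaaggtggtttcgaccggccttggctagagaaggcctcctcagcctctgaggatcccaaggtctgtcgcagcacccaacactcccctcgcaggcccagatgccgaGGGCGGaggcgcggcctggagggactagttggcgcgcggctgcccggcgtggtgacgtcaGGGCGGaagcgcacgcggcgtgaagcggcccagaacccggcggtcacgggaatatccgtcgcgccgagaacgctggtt
The GC content of these stretches was 73.6% for CCNL2, 65.2% for CLK2 and 67.6% for CCNL1, with 38, 19 and 28 CpG dinucleotides. All of them held the GC box, which 69.1% of the matched promoters of the 320 genes held. A match is a description of the letters and says nothing about which factor was bound.

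**Figure D2:**
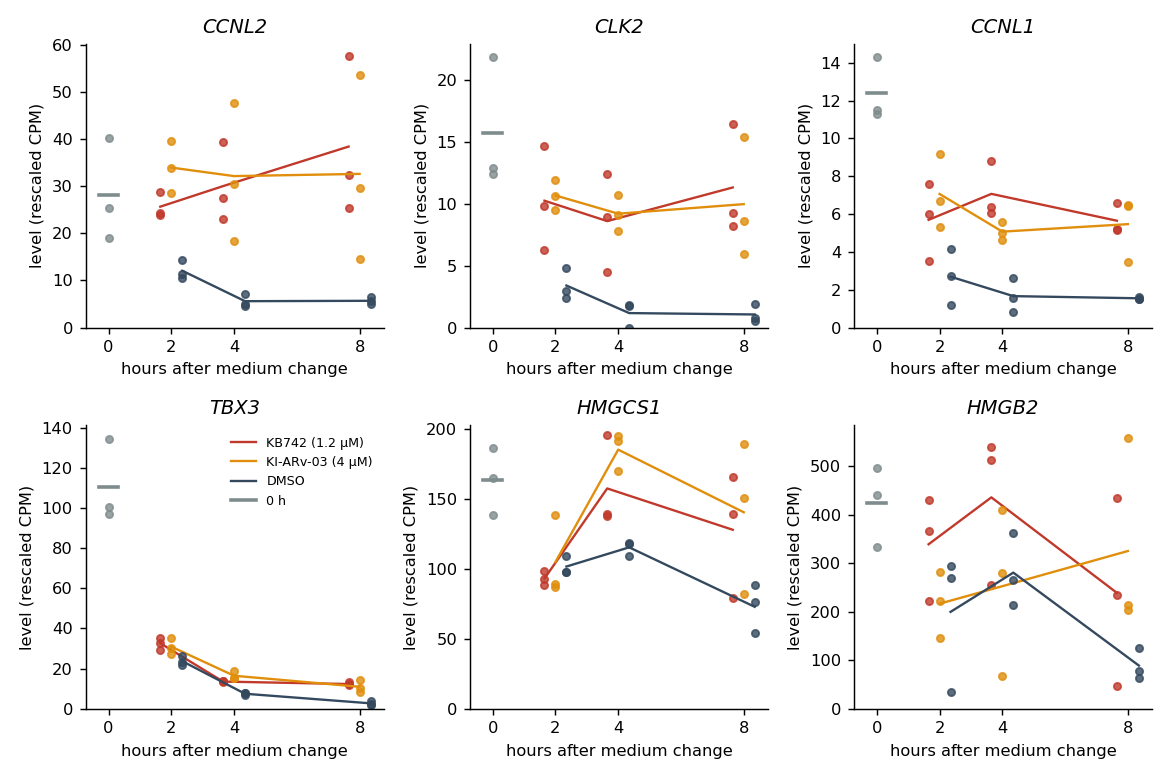
TMM-rescaled CPM (y axis) of CCNL2, CLK2, CCNL1, TBX3, HMGCS1 and HMGB2 by hours after the change of medium (x axis, 0 h at the low end), with KB742 left, KI-ARv-03 beside it and DMSO right at each time. Points are libraries, lines join group means and the bar at 0 h is the mean. The inhibitor libraries of CCNL2, CLK2 and CCNL1 lie above all DMSO libraries at 4 h, while the HMGB2 libraries scatter widely within groups.

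Across the whole set the 4 h levels were shifted upward by small amounts. With KB742, 289 of the 320 genes had a difference above 0, with a median of 0.38, against -0.01 over all genes tested and 0.18 over the lost and not retained genes. With KI-ARv-03, 264 genes were above 0, with a median of 0.30, against 0.00 over all genes and 0.15 over the lost and not retained genes. All 3 inhibitor libraries lay above all 3 DMSO libraries for 100 genes with KB742 (31.2%, beside 5.91% of all genes) and for 98 genes with KI-ARv-03 (30.6%, beside 5.95%), and 61 genes did so with both (19.1%, beside 2.19%). Both comparisons use the same DMSO libraries. At an unadjusted p under 0.05 in either direction there were 65 genes with KB742 (20.3%, beside 4.89% of all genes) and 44 with KI-ARv-03 (13.8%, beside 3.87%). These were all higher, whereas 2.39% and 2.06% of all genes were lower. The KB742 median was 0.58 with the deposited CPM, which shift the median of all genes by 0.18. A typical gene of the set had a 95% interval of ± 0.67 around its difference, wider than the medians. With DESeq2 on the recovered reads 6 genes were called with KB742, adding CAMSAP2, CDC6 and UHRF2, and 4 with KI-ARv-03, adding CAMSAP2 and TBX3.

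At 2 h little separated the treatments. Limma called none of the 320 genes higher than DMSO with KB742 (0% of all genes) or with KI-ARv-03 (0%), and neither edgeR nor DESeq2 called any. The median was 0.11 with KB742 and 0.12 with KI-ARv-03, with 208 and 218 of the 320 genes above 0. Leaving out 1 library moved these medians to between 0.006 and 0.234 with KB742 (0.006 without DMSO replicate 3, 0.234 without its replicate 2) and between 0.043 and 0.208 with KI-ARv-03 (0.043 when DMSO replicate 3 was left out, 0.208 when DMSO replicate 2 was). At an unadjusted p under 0.05 in either direction there were 12 genes with KB742 (3.75%, beside 3.41% of all genes) and 11 with KI-ARv-03 (3.44%, beside 3.37%). The genes of the set were all higher, whereas over all genes 203 (1.78%) were lower with KB742 and 178 (1.56%) with KI-ARv-03. The pooled shares were thus near those of all genes, but the directions were not. Complete separation of the libraries was seen for 25 genes with KB742 (3.73% of all genes) and 30 with KI-ARv-03 (5.88%), that is 7.81% and 9.38% of the set. The KB742 median at 2 h changed sign, to -0.04, when the deposited CPM were used, a scaling that shifts the median of all genes by -0.15. Relative to all genes it stayed at 0.09 to 0.10 under the scalings tried. The change in effect between 2 h and 4 h was tested as an interaction. Limma called no gene for either compound (0% of all genes each). At an unadjusted p under 0.05 in either direction there were 12 genes of the set (3.75%, beside 2.17% of all genes) for KB742 and 15 (4.69%, beside 2.3%) for KI-ARv-03. The medians were 0.28 for KB742, or 0.18 without its replicate 2 at 2 h, and 0.19 for KI-ARv-03.

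**Figure D3:**
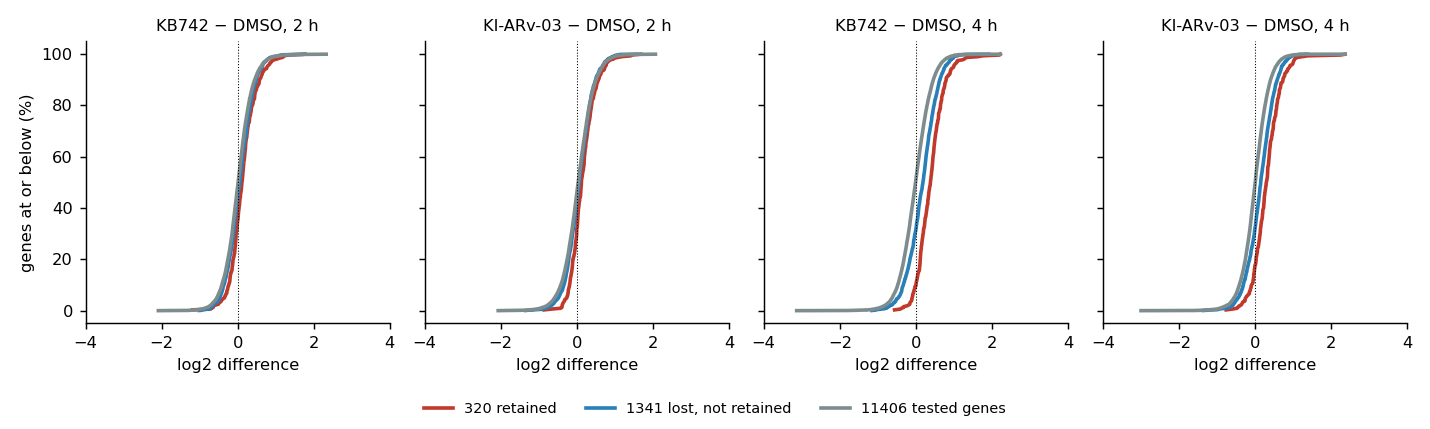
Cumulative share of genes (%, y axis) against the log2(CPM + 1) difference from DMSO (x axis) for KB742 and KI-ARv-03 at 2 h and 4 h, in the 320 retained genes, the 1341 lost and not retained genes and all 11406 genes tested. The curve of the 320 genes lies to the right of the others at 4 h, with medians of 0.38 and 0.30, and close to them at 2 h.

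The largest mean differences over the 4 comparisons at 2 h and 4 h belonged to CLK2, CCNL2, CCNL1, UHRF2, RBM23, CHST14, DTL and SRF. UHRF2, a ubiquitin ligase that binds hemimethylated DNA, averaged 8.76 ± 0.306 CPM with KB742 and 6.88 ± 0.846 CPM with KI-ARv-03, against 3.0 ± 1.33 CPM with DMSO at 4 h (SD, n = 3 each), and no library of either inhibitor overlapped the DMSO libraries. RBM23, an RNA-binding protein related to the splicing factor RBM39, differed at 2 h, with 31.2, 18.9 and 22.6 CPM for KB742 and 14.3, 31.1 and 24.8 CPM for KI-ARv-03, against 7.35, 9.72 and 3.28 CPM for DMSO. Its 2 h differences of 1.77 and 1.68 did not pass (limma adjusted p = 0.62 and 0.793), and at 4 h they were 0.33 and -0.03. CHST14, a dermatan sulfotransferase, averaged 5.28 ± 2.28 CPM with KB742 and 5.6 ± 2.6 CPM with KI-ARv-03, against 2.78 ± 1.76 CPM with DMSO at 4 h. SRF, the serum response factor, had 62.5, 20.4 and 10.1 CPM with KB742, 20.3, 10.9 and 13.4 CPM with KI-ARv-03 and 3.83, 7.69 and 8.42 CPM with DMSO. For SRF no library of either inhibitor overlapped the DMSO libraries, and its differences of 1.75 ± 0.57 and 1.07 ± 0.57 did not pass (limma adjusted p = 0.561 and 0.999). At the other end, NDC80 (a kinetochore subunit), SHROOM1, CLDN12 (a claudin) and EEF1E1 had the smallest mean differences. NDC80 averaged 8.42 ± 7.89 CPM with KB742 and 10 ± 2.11 CPM with KI-ARv-03 at 2 h, against 13.8 ± 5.33 CPM with DMSO, and EEF1E1 at 4 h 13.1 ± 5.13 CPM with KB742 and 12.9 ± 3.55 CPM with KI-ARv-03, against 13.2 ± 1.86 CPM with DMSO. In these 4 genes the libraries of both compounds overlapped DMSO at 2 h and at 4 h.

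Between 2 h and 4 h in DMSO, 12 of the 320 genes fell (3.75%, beside 0.491% of all genes tested and 33 of the 1341 lost and not retained genes). They were TBX3, TLE3, CUL1, SBNO2, CDC6, CAMSAP2, WDR43, CSNK1D, DTL, FOXJ2, WAC and TAOK3. The median change of the set was -0.37 (-0.62 with the deposited CPM, which shift the median of all genes by -0.22), 281 genes were below 0, and the 4 h libraries all lay below the 2 h libraries for 117 genes (36.6%, beside 12.5% of all genes). By these measures the lost and not retained genes fell more, with a median of -0.52 and 606 genes (45.2%) separated in this way. TBX3, a T-box repressor, had the smallest adjusted p. It stood at 8.07, 7.69 and 6.7 CPM in DMSO at 4 h, against 21.7, 23.1 and 26.3 CPM at 2 h, a change of -1.54 ± 0.22 (limma adjusted p = 0.00246). The 0 h libraries had held 100.3, 97.1 and 135 CPM, far above the DMSO libraries of 2 h. The inhibitors did not hold it near its 0 h level. At 4 h it was at 13.6, 13.6 and 13.4 CPM with KB742 and 15.3, 18.8 and 15.3 CPM with KI-ARv-03, and no library of either overlapped DMSO.

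Several of the other 11 fallers act in transcription or the cell cycle. TLE3, a Groucho-type corepressor, averaged 18.5 ± 3.23 CPM in DMSO at 4 h, against 53.1 ± 4.12 CPM at 2 h. SBNO2, a helicase-like coregulator, averaged 5.22 ± 0.934 CPM, against 18.6 ± 3.63 CPM. WAC, an adaptor of histone H2B ubiquitination, averaged 15.9 ± 1.11 CPM, against 36.5 ± 2.8 CPM. The cell-cycle genes showed the same direction. CUL1, the scaffold of SCF ubiquitin ligases, averaged 13.5 ± 1.19 CPM at 4 h, against 31.7 ± 4.66 CPM at 2 h, and CDC6, which loads the replicative helicase, 5.02 ± 0.541 CPM, against 12.7 ± 0.78 CPM. DTL, the substrate receptor of the CRL4 ligase that removes CDT1, averaged 9.79 ± 3.91 CPM, against 23.9 ± 4.18 CPM. The remaining genes were CAMSAP2 (microtubule minus ends), WDR43 (ribosome assembly), CSNK1D and TAOK3 (kinases) and FOXJ2 (a forkhead factor), with changes of -1.37, -1.63, -1.50, -1.13 and -1.40 (limma adjusted p between 0.0218 and 0.0456). This count of 12 moved to 7 with edgeR and 24 with DESeq2, and to 2 to 4 when any of the 6 libraries was left out.

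The change from 2 h to 4 h was also fitted within each inhibitor. With KB742 1 gene, TBX3, fell (0.395% of all genes tested, and 30 of the lost and not retained genes). It stood at 13.6, 13.6 and 13.4 CPM at 4 h, against 32.9, 35.5 and 29.5 CPM at 2 h, a change of -1.20 ± 0.22 (limma adjusted p = 0.0157). The call was lost without replicate 1 of KB742 at 2 h and without replicate 2 or 3 of KB742 at 4 h. The median change was -0.13, with 207 genes below 0, and it was -0.27 without replicate 2 at 2 h, -0.02 with the deposited CPM and -0.26 with library-size scaling. With KI-ARv-03 limma called no gene of the set (0.193% of all genes were called either way, and 15 of the lost and not retained genes fell), edgeR none and DESeq2 4 genes, and 35 genes were lower at an unadjusted p under 0.05 (10.9%, beside 7.9% of all genes). The median change was -0.24, with 243 genes below 0, and it was -0.42 with library-size scaling. Relative to the median of all genes, the set's change lay between -0.37 and -0.40 in DMSO, between -0.09 and -0.12 with KB742 and between -0.19 and -0.21 with KI-ARv-03 under the scalings tried.

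The compounds, given at different doses, were not separated by the set. At 4 h KB742 minus KI-ARv-03 had a median of 0.07, with 198 genes above 0. Leaving out 1 library moved this median to between -0.03 (without KB742 replicate 3) and 0.15 (without KB742 replicate 1), so it had no stable sign. Limma called no gene in either direction (0% of all genes), with 1 gene at an unadjusted p under 0.05 (0.312%, beside 1.46% of all genes). EdgeR and DESeq2 also called none. The typical 95% interval of ± 0.67 leaves room for differences larger than the shift from DMSO itself, so these values do not show that the compounds act alike.

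By role, the set spanned most of the nuclear and secretory functions of a dividing cell. Roles were assigned by hand, and 28 of the 320 genes were left as other. The 4 h median difference from DMSO with KB742 was highest in splicing and RNA processing (0.54, 29 genes), DNA replication and repair (0.52, 13 genes) and polymerase II transcription (0.48, 16 genes). It was lowest in nuclear transport (0.12, 8 genes) and mitosis (0.21, 32 genes). With KI-ARv-03 the order differed: polymerase II transcription had the highest median (0.41), kinases, DNA replication, chromatin regulators and splicing lay together at 0.37 to 0.38, and mitosis (0.20), ribosome assembly (0.16) and nuclear transport (0.09) were lowest. These medians are descriptions, since single genes within a role ranged widely, and the DMSO libraries are common to both compounds.

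**Figure D4:**
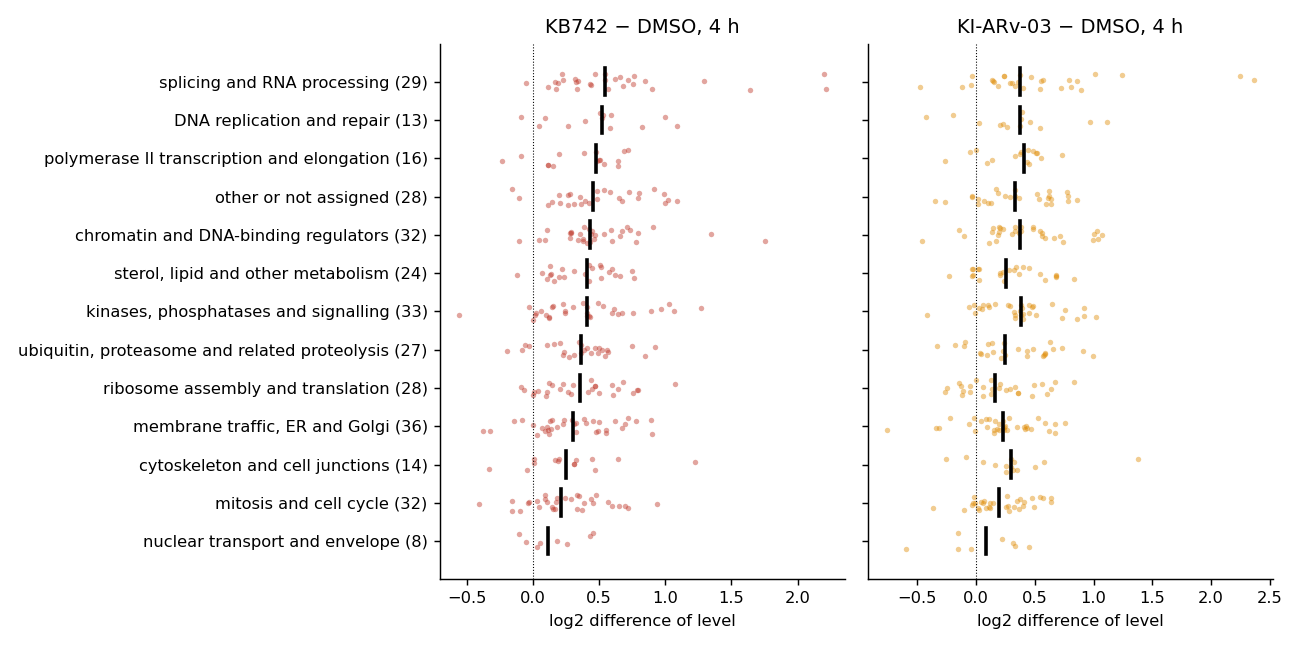
Log2(CPM + 1) difference from DMSO at 4 h (x axis) of the 320 retained genes, by role (rows), for KB742 (left) and KI-ARv-03 (right). Points are genes and black bars are medians, which run from 0.12 for nuclear transport to 0.54 for splicing and RNA processing with KB742.

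In the splicing and RNA processing group, 28 of the 29 genes were above DMSO at 4 h with KB742 and 25 with KI-ARv-03. Of 265 tested genes in a symbol list of RNA-binding and processing families, 15 (5.66%) were in the set, beside 2.81% of all genes tested. Only genes with at least 10 CPM at 0 h could enter, 195 of these 265 and 6415 of all 11406 genes tested. The family shares here and below are over all tested genes, so they also depend on how many genes of a family were that abundant. These were HNRNPA0, DHX30, RBM12, ZC3H18, RBM39, RBM22, DDX47, YTHDC1, DDX23, DHX36, RBM5, PRPF4, RBM23, ZC3H13 and CNOT8. HNRNPA0, an hnRNP of the A/B type, had 129, 121 and 168 CPM with KB742 and 127, 152 and 126 CPM with KI-ARv-03 at 4 h, against 98.6, 105 and 124 CPM with DMSO. For this abundant gene the KI-ARv-03 libraries lay above all 3 DMSO libraries and the KB742 libraries overlapped them, and the differences were only 0.34 and 0.30. DHX30, an RNA helicase, averaged 32.5 ± 11.8 CPM with KB742 and 33.7 ± 1.61 CPM with KI-ARv-03, against 22.1 ± 4.87 CPM with DMSO. The list includes YTHDC1, the nuclear reader of N6-methyladenosine, ZC3H13, a subunit of the methyltransferase complex together with VIRMA, which was also in the set, and CNOT8, a deadenylase subunit.

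Of 82 tested genes of polymerase II elongation and Mediator, 13 (15.9%) were in the set, among them ELL2, POLR2A, MED13, MED13L, MED1, MED4, RTF1, CTR9, ELOA, AFF4, TTF2 and RNGTT. They include the scaffold of the super elongation complex (AFF4) and its partner ELL2, subunits of the PAF1 complex (CTR9) and its associate RTF1, and the capping enzyme RNGTT. ELL2 stood at 68.8, 85.9 and 88.2 CPM with KB742 and 79.5, 85.5 and 68.4 CPM with KI-ARv-03 at 4 h, against 54.1, 65.6 and 65.2 CPM with DMSO, and no library of either inhibitor overlapped the DMSO libraries. POLR2A, the largest subunit of the polymerase that CDK9 phosphorylates, averaged 69.1 ± 23.2 CPM with KB742 and 52 ± 8.26 CPM with KI-ARv-03, against 47.5 ± 9.89 CPM with DMSO (SD, n = 3 each), and the libraries of both inhibitors overlapped the DMSO libraries. At 8 h POLR2A was at 57.7 ± 2.69 CPM with KB742 and 51.5 ± 7.14 CPM with KI-ARv-03, against 31.9 ± 8.6 CPM with DMSO. None of the 82 genes passed at 4 h with either compound or between 2 h and 4 h in DMSO.

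Among 69 tested genes of ribosome assembly, 14 (20.3%) were in the set, the largest share of the symbol lists. They were WDR43, EXOSC9, RPF1, NOL11, GTPBP4, RRP1B, WDR12, UTP11, PNO1, WDR75, WDR3, NOM1, NMD3 and SDAD1, which act from pre-rRNA processing to export of the large subunit (NMD3). WDR43, a small-subunit processome protein, had 7.23, 7.42 and 12.6 CPM with KB742 and 10.5, 8.41 and 5.73 CPM with KI-ARv-03 at 4 h, against 4.03, 4.42 and 5.61 CPM with DMSO, and no library of either inhibitor overlapped the DMSO libraries. Its 0 h level was 30.4 ± 6.78 CPM. EXOSC9, an exosome subunit, averaged 16.4 ± 5.08 CPM with KB742 and 12.1 ± 3.0 CPM with KI-ARv-03, against 13 ± 1.29 CPM with DMSO. Ribosomal proteins and translation factors themselves supplied 4 of 168 tested genes (2.38%, beside 2.81% of all genes): RPL7L1, RPS6KB1, EEF1E1 and EIF3A. Among genes with at least 10 CPM at 0 h these were 4 of 135, beside 320 of 6415 over all genes, a lower share. Mitochondrial ribosome and respiratory chain genes supplied 2 of 205 (0.976%), TOMM70 and MRPL44. RPL7L1 averaged 35.7 ± 11.9 CPM with KB742 and 35.8 ± 8.19 CPM with KI-ARv-03, against 36.8 ± 4.95 CPM with DMSO, and RPS6KB1, the S6 kinase listed here by its symbol, 16.7 ± 2.79 CPM with KB742 and 17.2 ± 6.12 CPM with KI-ARv-03, against 12.8 ± 3.08 CPM with DMSO. TOMM70, a mitochondrial import receptor, averaged 68 ± 10.2 CPM with KB742 and 54.3 ± 3.51 CPM with KI-ARv-03, against 47.7 ± 10.3 CPM with DMSO, and MRPL44 10.1 ± 1.57 CPM with KB742 and 8.35 ± 2.19 CPM with KI-ARv-03, against 6.99 ± 0.60 CPM with DMSO. The 4 members among the ribosomal proteins and translation factors had a median difference of 0.02 with KB742, against 0.36 for the 14 ribosome assembly genes, a difference that was not tested.

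Chromatin regulators supplied 9 of 199 tested genes (4.52%): HMGB2, KMT2A, MSL1, CDYL2, PHC3, DOT1L, BRWD1, MORC2 and JARID2. HMGB2, a DNA-bending protein and the most abundant of the 320, had 256, 512 and 539 CPM with KB742 and 409.7, 68 and 279.9 CPM with KI-ARv-03 at 4 h, against 214, 362 and 265 CPM with DMSO. Its libraries scattered widely within groups and overlapped DMSO with both compounds at 2 h and 4 h. At 8 h it stood at 434, 235 and 47.9 CPM with KB742 and 214, 203 and 558 CPM with KI-ARv-03, against 125, 64.4 and 77.4 CPM with DMSO, and the KB742 libraries still overlapped the DMSO libraries. KMT2A, a histone H3 lysine methyltransferase, had 7.59, 11.9 and 13.1 CPM with KB742 and 14.3, 9.84 and 17.9 CPM with KI-ARv-03 at 4 h, against 10.5, 6.55 and 15.3 CPM with DMSO. The KMT2A libraries of both compounds overlapped DMSO at 4 h, and at 8 h the gene averaged 7.86 ± 6.47 CPM with KB742 and 7.65 ± 3.07 CPM with KI-ARv-03, against 2.43 ± 0.314 CPM with DMSO. H3-3B, which encodes histone H3.3, averaged 298 ± 7.87 CPM with KB742 and 287 ± 30 CPM with KI-ARv-03, against 219 ± 9.04 CPM with DMSO, and no library of either inhibitor overlapped the DMSO libraries. Genes with close copies, such as HMGB2 and H3-3B, are uncertain here because the counting of shared reads is not given in the sources used here.

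Sequence-specific transcription factors supplied 8 of 293 tested genes (2.73%, beside 2.81% of all genes): TBX3, SRF, CLOCK, NFAT5, HOXC6, HOXA10, FOXJ2 and USF3. Among genes with at least 10 CPM at 0 h these were 8 of 142, beside 320 of 6415 over all genes. Their differences at 4 h ran from -0.11 to 1.75 with KB742 and from 0.19 to 1.07 with KI-ARv-03, and none passed. Among the deepest falls over 8 h in DMSO were those of PIM3, TBX3, WDR43, CDC6, CSRNP2, KMT2A and MCM10. PIM3, a serine/threonine kinase, stood at 4 h at 21.1, 10.3 and 5.63 CPM with KB742 and 14.1, 7.33 and 4.56 CPM with KI-ARv-03, against 3.23, 5.07 and 3.59 CPM with DMSO. Its 0 h libraries held 51.3, 54.3 and 164 CPM. At 8 h PIM3 held 3.35 ± 1.1 CPM with KB742 and 4.99 ± 3.2 CPM with KI-ARv-03, against 1.15 ± 0.713 CPM with DMSO, so that it met the retention criterion at a small fraction of its 0 h level. CSRNP2, a nuclear protein, was likewise low throughout after 0 h, with 4.44 ± 2.7 CPM with KB742 and 3.77 ± 0.953 CPM with KI-ARv-03, against 3.47 ± 1.93 CPM with DMSO at 4 h and 27 ± 5.72 CPM at 0 h.

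In DNA replication and repair, 8 of 114 tested genes (7.02%) were in the set: FEN1, MCM10, MSH6, RMI2, XPC, RFC1, MCMBP and SMC3. FEN1, the flap endonuclease, had 103, 91.6 and 68.6 CPM with KB742 and 93.7, 63.7 and 76 CPM with KI-ARv-03 at 4 h, against 62.3, 71.9 and 62.8 CPM with DMSO, and the libraries of both inhibitors overlapped the DMSO libraries. MCM10, which helps activate the replicative helicase, averaged 16.3 ± 1.62 CPM with KB742 and 13.3 ± 2.44 CPM with KI-ARv-03, against 8.83 ± 1.97 CPM with DMSO, and the KB742 libraries lay above all 3 DMSO libraries and the KI-ARv-03 libraries overlapped them. With KB742 12 of the 13 genes of this role were above DMSO at 4 h, and with KI-ARv-03 11, without any passing on its own.

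Cell division genes supplied 21 of 275 tested (7.64%): CKAP4, CCNA2, CEP20, ANAPC13, NCAPG, KIF11, CDC6, CDCA2, CCNL2, ANLN, BUB1B, KIF21A, CEP97, KIF14, HAUS6, KIF20A, NDC80, TUBGCP3, CCNL1, KIF3A and CEP192. The list was built on symbols, so that the cyclins L and the endoplasmic reticulum protein CKAP4 entered it. CKAP4 averaged 88.6 ± 8.97 CPM with KB742 and 93 ± 19.3 CPM with KI-ARv-03, against 82.6 ± 13.7 CPM with DMSO at 4 h, and the libraries of both inhibitors overlapped the DMSO libraries. CCNA2, cyclin A2 of S phase and mitosis, averaged 49 ± 4.93 CPM with KB742 and 40.4 ± 9.46 CPM with KI-ARv-03, against 29.8 ± 1.12 CPM with DMSO, and no library of either inhibitor overlapped the DMSO libraries. In the mitosis role as a whole, 26 of 32 genes were above DMSO with each compound at 4 h, and the 2 h medians, 0.20 for KB742 and 0.22 for KI-ARv-03, were as large as those at 4 h. The set also held the mitotic kinases PLK1, AURKB and NEK2 and the spindle checkpoint kinase BUB1B.

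Kinases and phosphatases supplied 18 of 347 tested genes (5.19%): PTP4A1, PIM3, MAPK1IP1L, PIP5K1A, PTPN1, AURKB, NEK2, PLK1, CSNK1D, PPP1R13L, TAOK3, SLK, RPS6KB1, MTMR6, PIK3CB, CLK2, PIK3R4 and CLK1. This list was also built on symbols, and not every entry is a kinase or a phosphatase. PTP4A1, a prenylated tyrosine phosphatase, had 257, 217 and 291 CPM with KB742 and 234, 291 and 232 CPM with KI-ARv-03 at 4 h, against 181, 186 and 204 CPM with DMSO, and no library of either inhibitor overlapped the DMSO libraries. It was among the genes that fell least, with 133 ± 17.1 CPM in DMSO at 8 h and 265 ± 22.4 CPM at 0 h. Small GTPases and their regulators numbered 8 of 265 (ARHGAP11A, RAB22A, RAB3GAP2, ARHGAP5, DENND5A, RAB3GAP1, RAP2C and ARHGAP19). ARHGAP11A, a GTPase-activating protein, averaged 27.9 ± 6.04 CPM with KB742 and 21.9 ± 3.1 CPM with KI-ARv-03, against 20.2 ± 2.99 CPM with DMSO, and RAB22A 25.7 ± 7.67 CPM with KB742 and 27.3 ± 3.8 CPM with KI-ARv-03, against 23.2 ± 4.62 CPM with DMSO. Receptors, ligands and adhesion genes numbered 9 of 229 (IGFBP3, TNFRSF21, NECTIN1, CLDND1, EPHA3, GPR37, GPR180, CLDN12 and TNFRSF10B). IGFBP3, a binding protein of insulin-like growth factors, averaged 38.8 ± 6.82 CPM with KB742 and 34.5 ± 6.21 CPM with KI-ARv-03, against 35.1 ± 7.22 CPM with DMSO, and TNFRSF21, death receptor 6, 32.8 ± 27.9 CPM with KB742 and 19.6 ± 3.17 CPM with KI-ARv-03, against 12.1 ± 1.59 CPM with DMSO.

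Ubiquitin ligases and deubiquitinases supplied 14 of 347 tested genes (4.04%), among them KCTD3, UBE2Q1, KLHL8, CUL1, USP10, KLHL9, RNF220, USP54, UBE2W, RNF2, USP15 and WWP1. KCTD3 averaged 35.2 ± 16.2 CPM with KB742 and 30.4 ± 8.05 CPM with KI-ARv-03, against 38.5 ± 9.02 CPM with DMSO at 4 h, and the libraries of both inhibitors overlapped the DMSO libraries. UBE2Q1, a ubiquitin-conjugating enzyme, averaged 40.1 ± 6.28 CPM with KB742 and 40.8 ± 4.3 CPM with KI-ARv-03, against 36.9 ± 2.1 CPM with DMSO, and the libraries of both inhibitors overlapped the DMSO libraries. Membrane traffic supplied 10 of 248 (4.03%): SYT4, GOLGA2, AP1G1, YIPF5, SNX9, SEC24A, EXOC1, CHMP7, STXBP3 and COG2. SYT4, a synaptotagmin, had 269, 197 and 149.8 CPM with KB742 and 192, 203 and 112 CPM with KI-ARv-03, against 80.3, 130.1 and 115 CPM with DMSO, and the KB742 libraries lay above all 3 DMSO libraries and the KI-ARv-03 libraries overlapped them. GOLGA2, the Golgi matrix protein GM130, averaged 52.4 ± 37.3 CPM with KB742 and 41.6 ± 9.9 CPM with KI-ARv-03, against 26.2 ± 8.41 CPM with DMSO. HSPA5, the main chaperone of the endoplasmic reticulum, averaged 289 ± 107 CPM with KB742 and 215 ± 53.9 CPM with KI-ARv-03, against 175 ± 30.2 CPM with DMSO, and the libraries of both inhibitors overlapped the DMSO libraries. ATP2A2 and PGRMC2, a heme- and progesterone-associated membrane protein, completed the most abundant genes. ATP2A2 averaged 131 ± 15.6 CPM with KB742 and 139 ± 9.21 CPM with KI-ARv-03, against 114 ± 9.77 CPM with DMSO, and PGRMC2 95.6 ± 44.9 CPM with KB742 and 79.2 ± 15.9 CPM with KI-ARv-03, against 51.4 ± 9.91 CPM with DMSO. No gene named TMEM was in the set (0 of 148), and FAM76B and FAM120C were the 2 of 89 named FAM, at 9.69 ± 4.17 and 10.4 ± 1.06 CPM with KB742, 9.92 ± 0.974 and 8.07 ± 2.41 CPM with KI-ARv-03, and 6.38 ± 1.95 and 4.78 ± 1.24 CPM with DMSO.

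Sterol synthesis was represented by 3 of 21 tested genes (14.3%), among them HMGCS1 and INSIG1. HMGCS1 catalyses an early step of cholesterol synthesis, and INSIG1 retains the SREBP regulators in the endoplasmic reticulum. HMGCS1 had 196, 138 and 139 CPM with KB742 and 195, 191 and 170.1 CPM with KI-ARv-03 at 4 h, against 119, 118 and 109.6 CPM with DMSO, and no library of either inhibitor overlapped the DMSO libraries. INSIG1 had 32.6, 47.9 and 55.5 CPM with KB742 and 58.4, 47.4 and 44.5 CPM with KI-ARv-03, against 33.5, 26.4 and 32.7 CPM with DMSO, and the KI-ARv-03 libraries lay above all 3 DMSO libraries and the KB742 libraries overlapped them. The 4 h difference of HMGCS1 was 0.43 ± 0.28 with KB742 and 0.68 ± 0.28 with KI-ARv-03, and that of INSIG1 0.52 ± 0.29 with KB742 and 0.68 ± 0.29 with KI-ARv-03 (SE), and neither gene passed the test. Over the 21 genes of the pathway the 4 h medians were -0.04 with KB742 and 0.24 with KI-ARv-03.

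Label uptake into the same transcripts was read from the conversion fraction. At 4 h in DMSO it was higher than at 0 h for 132 of the 303 genes that could be tested (43.6%, beside 34.8% of all 7806 genes tested for conversion and 653 of 1061 lost and not retained genes). Without replicate 3 at 0 h, the library with the lowest conversion, 80 genes passed, and without replicate 3 of DMSO at 4 h 87. Taking each gene's mean over the 3 libraries of a group, the median conversion at 0 h was 0.341%, or 0.385% without replicate 3. Under KB742 the medians were 0.423%, 0.604% and 0.631% after 2 h, 4 h and 8 h, and under KI-ARv-03 0.456%, 1.34% and 0.575%. DMSO cells reached 0.772% after 2 h and 1.57% after 4 h. Only 71 genes had at least 20 reads in every DMSO library at 8 h, with a median of 2.7%. Over the 252 genes with values in every group up to 4 h, the 4 h median was 0.569% under KB742 and 1.32% under KI-ARv-03, against 1.56% in DMSO cells. The KI-ARv-03 value at 4 h rests on replicate 1, whose median over the set was 2.54%, against 0.637% and 0.568% in the other libraries of that group.

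With KB742 at 4 h conversion was lower than in DMSO for 60 of 303 genes (19.8%, beside 17.9% of all 7603 genes tested) and higher for 1, NDC80 (0.0132% of all genes). The share was near that of all genes, so lower conversion did not mark this set. With KI-ARv-03 it was lower for 13 of 303 (7.83% of all 7616 genes tested) and higher for 2, RACGAP1 and HK2 (0.0525% of all genes). Without the 3 libraries that stand apart the counts of lower genes were 91 and 66. Without replicate 1 of KI-ARv-03 at 4 h alone, 53 genes were lower with that compound, 4 without its replicate 2, 2 without its replicate 3 and 8 without replicate 1 of DMSO. For KB742 the count was 22 without its replicate 1, 27 without its replicate 2, and 38 without replicate 1 or replicate 3 of DMSO. The 13 genes were CCNL2, CKAP4, INSIG1, YIPF5, LUC7L, HSPA13, ESRP2, RPF1, KLHL8, DTL, WASL, TAOK3 and PIP5K1A, and 12 of them were lower with KB742 as well, against the same DMSO libraries.

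CCNL2 had the smallest adjusted p for both compounds. Its conversion at 4 h was 0.36, 1.22 and 0.894% under KB742 and 1.56, 0.252 and 0.26% under KI-ARv-03, against 8.1, 7.95 and 5.64% with DMSO (limma on arcsine-transformed fractions, adjusted p = 1.54e-05 and 5.57e-06). At 4 h the CCNL2 level was thus higher, and its conversion lower, with each inhibitor than with DMSO. HSPA13, an endoplasmic reticulum-associated Hsp70 relative, had 0.32, 1.92 and 1.16% under KB742 and 3.0, 1.68 and 1.55% under KI-ARv-03, against 13.2, 6.58 and 4.13% with DMSO, with 1 DMSO library far above the other 2. INSIG1 had 0.865, 1.04 and 0.777% under KB742 and 2.71, 0.802 and 0.473% under KI-ARv-03, against 5.84, 3.5 and 3.68% with DMSO. The highest mean conversion in DMSO at 4 h belonged to HSPA13, ESRP2, TBX3, CCNL2, RBM39 and DTL, and the lowest to HK2, ARHGAP19, RACGAP1 and PIK3R4. RBM39, a splicing factor, had 1.63, 1.4 and 2.76% with KB742, against 6.57, 8.59 and 6.32% with DMSO. HK2, a hexokinase, had 0.348, 0.379 and 0.894% under KB742 and 1.14, 0.995 and 0.618% under KI-ARv-03, against a value of 0 in all 3 DMSO libraries. NDC80, the exception with KB742, had 7.87, 0.696 and 6.23%, against 0.295, 0.475 and 1.77% with DMSO.

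**Figure D5:**
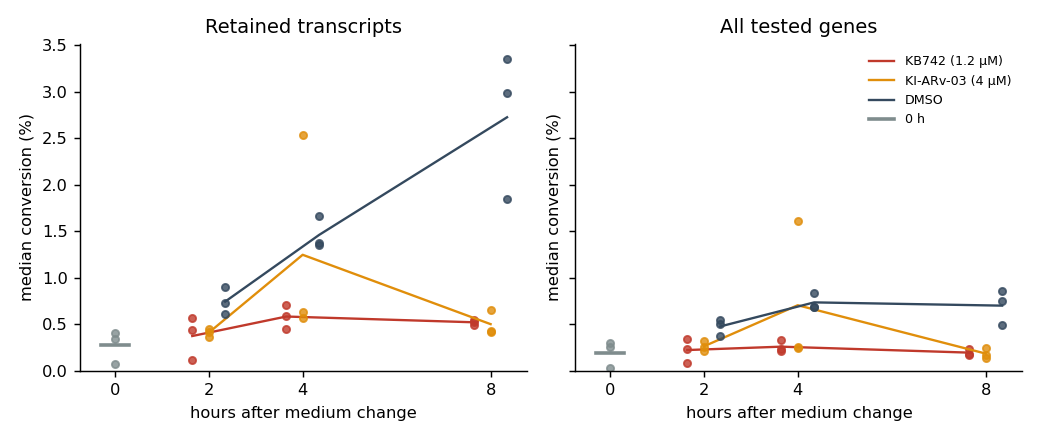
Median T-to-C conversion (%, y axis) by hours after the change of medium (x axis) in the 320 retained genes (left) and all genes tested (right). Points are libraries, each the median over genes with at least 20 reads in all 3 libraries of its group, and lines join group means. At 4 h the libraries of the retained genes lie at 0.452 to 0.709% with KB742, against 1.35 to 1.66% with DMSO, while 1 KI-ARv-03 library lies at 2.54%.

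The genes of the set were long and rich in exons. The median gene span was 44.0 kb, against 31.8 kb for the lost and not retained genes and 27.0 kb for the 6415 tested genes with at least 10 CPM at 0 h. Transcript lengths, exon numbers and end sequences were those of the GENCODE transcript matched to each RefSeq identifier. The median transcript was 3740 bases, against 3301 and 2603 bases, over the 308 genes with a value. The median exon number was 12.5, against 9 and 9. The last 250 bases of the transcript, where 3′ libraries read, held 35.2% T, against 32.8% and 30.8%, which sets how many positions can show a conversion. Of the 320 genes 269 matched a RefSeq promoter (GRCh38.p14, 250 bases before to 50 after the start). Median GC content was 64.0%, against 66.0% and 65.7%, and the median CpG count was 26, against 28 and 27. Among the motifs searched on both strands of these 300 bases, the TATA box TATAAA was in 5.2% of the promoters, against 5.74% and 4.79%. The GC box GGGCGG was in 69.1%, against 72.6% and 73.2%, and the ETS core CCGGAAG in 24.5%, against 22.0% and 22.6%. The CCAAT box was in 39.8%, against 38.7% and 38.8%, and the E-box CACGTG in 14.5%, against 10.4% and 11.5%. Over all 27305 RefSeq promoters the shares were 11.9% for the TATA box, 44.6% for the GC box, 10.7% for the ETS core, 35.7% for the CCAAT box and 7.43% for the E-box. These are descriptions without a test.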

How the data were processed

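The 30 libraries of 22Rv1 cells were 3′ mRNA SLAM-seq libraries. The authors deposited 1 table of signal as CPM, scaled by library total, per RefSeq transcript and 1 table of T-to-C conversion as a fraction per transcript. Genome build hg19 comes from the submitters' processing notes, and no aligner or counter is named in the labels or headers (not given in the sources used here). Spike-in RNA, added per the labels' protocols, was not analysed here. The set and its role and family lists were chosen with earlier results of these data known.

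All deposited CPM were whole multiples of 1 read within 0.05 reads, so reads were recovered. Reads were rescaled by TMM (edgeR 4.0.16), and log2(CPM + 1) of 11406 genes passing filterByExpr (minimum count 10), all 320 of the set among them, was fitted with limma-trend 3.58.1 (R 4.3.3) over 30 libraries in 10 groups. Since the deposited unit is not a raw count, limma was the main test, and edgeR's quasi-likelihood test and DESeq2 1.42.0 on recovered reads were alternatives. Conversion fractions behind at least 20 reads were arcsine square-root transformed and fitted with limma and robust empirical Bayes. Adjusted p-values are Benjamini-Hochberg over all genes tested, two-sided, with 0.05 as the threshold. In data simulated for KB742 against DMSO at 4 h, the level fit recovered 100% of 200 changed genes with 3.38% false calls (10871 genes) and the conversion fit 96.5% with 8.10% false calls (7603 genes). The simulated level changes were far larger than the 4 h medians of the set, and only well-read genes were changed. The simulated conversion changes were large increases, whereas most changes called with the inhibitors were decreases. Robust empirical Bayes was chosen for the conversion fit after this check, so its 8.10% is not an independent rate. That rate also lies above what the 0.05 threshold aims at. These rates therefore do not tell how many smaller differences, such as those reported here, would be found.

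Named genes were the 10 most abundant at 0 h, the 8 deepest falls, the 8 largest and 4 smallest mean differences at 2 h and 4 h, up to 12 called genes per comparison, the 6 highest and 4 lowest conversions in DMSO at 4 h, members of symbol families and genes beside the limits. Some of these genes are not reported here. Genes were named through RefSeq identifiers, of which 50153 of 50925 matched. Alternatives were other scalings, pseudocounts, filters, fits to the compared groups alone, a replicate block, each library left out and, added after seeing the data, all 3 libraries that stand apart left out. Counting error alone limits values of few reads, and depth ranged from 3376884 to 9265131 reads.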

Additional observations from a re-analysis of the deposited data

How the results depend on the processing

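No called gene changed sign under any alternative, but the KB742 median at 2 h did with deposited CPM (-0.042) and the median of KB742 against KI-ARv-03 at 4 h did without KB742 replicate 3 (-0.031). The counts at 2 h (0 genes with either compound), of KB742 against KI-ARv-03 (0) and of conversion in DMSO at 4 h against 0 h stayed within 1.5 times under every alternative other than leaving out a library. At 4 h, fitting the compared groups alone gave 0 genes with KB742 and 1 with KI-ARv-03, and DESeq2 gave 6 and 4. The fall in DMSO between 2 h and 4 h was called for 19 genes with deposited CPM, 28 with library-size scaling, 6 without a filter, 3 with the groups alone, 7 with edgeR and 24 with DESeq2. With KB742 the 4 h against 2 h count was 0 with deposited CPM, 4 with library size, 0 with the groups alone, 3 without the libraries that stand apart and 4 with DESeq2. With KI-ARv-03 it was 4 with library size, 3 with a pseudocount of 4 and 4 with DESeq2. Lower conversion at 4 h was called for 91 genes (KB742) and 66 (KI-ARv-03) without the libraries that stand apart, for 17 and 1 on a log2 scale, and for 6 with KI-ARv-03 and the groups alone. The causes were not tested. The set itself counted 103 genes with TMM-rescaled CPM, 525 with a pseudocount of 0.25, 62 with one of 4 and 197 with a 0 h minimum of 20 CPM. The median of all genes at 8 h in DMSO against 0 h was -0.73 with deposited CPM and -0.13 with TMM.

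Leaving out 1 library at a time gave 0 to 0 genes at 2 h with either compound, 0 to 3 (KB742) and 1 to 2 (KI-ARv-03) at 4 h, 2 to 4 for the fall in DMSO, 0 to 2 and 0 to 0 for 4 h against 2 h with KB742 and KI-ARv-03, and 0 to 0 between the compounds. For conversion it gave 80 to 121 in DMSO, 22 to 55 with KB742 and 2 to 53 with KI-ARv-03, and for the size of the set 164 to 520. The sample titles give only a replicate number. Deviations of same-numbered libraries correlated between -0.51 and 0.56 and did not exceed 0.1 in every pair of any comparison. These values neither show nor exclude a pairing by number. With a replicate block the counts were 3 (KB742) and 2 (KI-ARv-03) at 4 h, 0 at 2 h, 10 for the fall in DMSO, and 131, 56 and 11 for conversion in DMSO, KB742 and KI-ARv-03.

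Depth limits the set at 8 h in DMSO, where genes had a median of 18 reads per library and 71 of 320 had conversion values in all libraries.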

Other observations

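Of the 331 genes that met the level criteria, 11 were left out, 9 for ZNF or SLC symbols and 2 for a conversion of 0.10 or more in DMSO at 2 h. The pair with high conversion was HES1, a Notch target repressor, at 20.9%, and ID3, an inhibitor of helix-loop-helix factors, at 11.95%. At 4 h ID3 held 5.42, 8.11 and 16.2 CPM with KB742 and 7.50, 5.19 and 8.09 CPM with KI-ARv-03, against 8.47, 5.24 and 9.98 CPM with DMSO, and its 0 h libraries held 127, 132 and 150.1 CPM. The ID3 libraries of all 3 treatments thus overlapped at 4 h. SLC20A1, a sodium-dependent phosphate transporter, had 10.96, 7.07 and 6.30 CPM with KB742 and 4.91, 4.47 and 6.76 CPM with KI-ARv-03 at 4 h, against 2.42, 2.13 and 2.18 CPM with DMSO. Its difference was 1.46 ± 0.30 (SE) with KB742 (limma adjusted p = 0.0374) and 0.96 ± 0.30 with KI-ARv-03 (limma adjusted p = 0.573), and no library of either inhibitor overlapped DMSO. SLC45A3, the prostate-expressed transporter prostein, had 24.4, 12.4 and 15.6 CPM with KB742 and 17.3, 14.0 and 12.5 CPM with KI-ARv-03, against 9.28, 10.1 and 10.3 CPM with DMSO. The SLC45A3 groups did not overlap at 4 h, but the differences of 0.71 and 0.50 did not pass (limma adjusted p = 0.996 and 0.999). SLC20A1 and SLC45A3 were singled out here after their values were seen.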
